A study of Rattus norvegicus with 6 samples.

Results

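Genes of mitosis and of the spindle were followed in primary rat cells of the articular surface, the outermost sheet of joint cartilage, which is bathed by synovial fluid. The members were 39 genes named by symbol, and 38 of them were found among the 32161 genes of the deposited count table; Ccnb2 was not analysed here. RNA had been sequenced from cells kept without flow (0 dyne/cm², called static, 3 libraries) and from cells under fluid shear stress of 20 dyne/cm² (called shear, 3 libraries), shear stress being the drag of a moving fluid on the cell surface. The labels name no strain, sex, age, culture passage or duration of flow, and they give no treatment that both groups share beyond the culture itself. Whether replicates were separate animals, cultures or repeat preparations is not stated, so the p-values reflect only how far these libraries scatter, and that scatter may be technical.

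Mitosis is run by the kinase CDK1 with its A- and B-type cyclins, and by the Aurora, BUB and MPS1 kinases. They build the spindle, attach chromosomes to it through kinetochores, hold anaphase back until attachment is complete and then split the cell. Transcripts of these genes accumulate in G2 and mitosis and are low in resting cells, so their level in a culture follows how many cells are dividing. Chondrocytes divide little in adult cartilage and resume division in culture. In bulk RNA, fewer dividing cells and less RNA per dividing cell cannot be told apart.

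Mitosis and spindle genes were lower in shear libraries by small amounts. All 38 passed the filter on low counts, 15 fell (edgeR quasi-likelihood test, Benjamini-Hochberg adjusted p under 0.05 over the 13945 genes tested) and 0 rose. Over all genes tested 7.71% were lower and 10.8% higher by the same rule. At an unadjusted edgeR p under 0.05, 20 members were lower and 0 higher, beside 1908 lower and 2194 higher of all 13945 genes tested. DESeq2 and limma-voom also called 0 members higher. The median log2 fold change of the members, shear minus static, was -0.16, beside -0.01 for all genes tested. Among the 15 that fell, levels dropped by between 10.3% (Anln) and 32.4% (Kif2c), with a median of 14.5%. Of the 23 that did not pass, 17 had a negative and 6 a positive fold change. Without TMM factors, on library totals alone, 23 members were lower, and 1730 genes in all were lower against 1124 higher, where the TMM-scaled comparison gave 1075 and 1508.

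Single libraries showed the same order. In CPM (counts over the TMM-scaled library total, per 1000000), the 38 genes summed to 3990, 3771 and 3914 in static replicates 1 to 3 and to 3402, 3637 and 3549 in shear replicates 1 to 3. The static mean was 3892 ± 111 CPM and the shear mean 3529 ± 119 CPM (SD, n = 3 each), a ratio of 0.907. In 22 of the 38 genes every shear library lay below every static library, in 0 every shear library lay above, and in 16 the groups overlapped. Over all genes tested the first pattern held in 15.9% and the second in 16.7%. Shear replicate 1 was the lowest of the 6 libraries for 22 genes, and without it 12 members were lower with a median log2 fold change of -0.13.

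**Figure D1:**
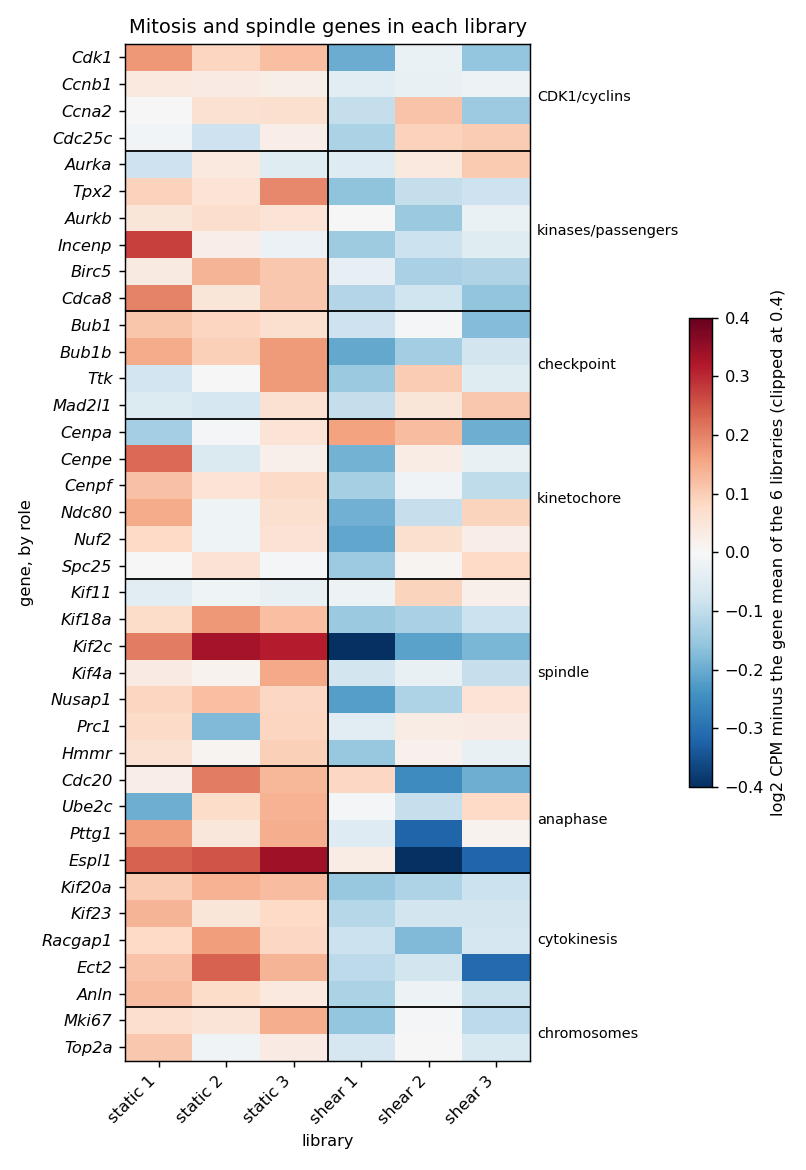
Log2 CPM of each of the 38 genes (rows, by role) in each of the 6 libraries (columns), as the difference from that gene's mean over the 6 libraries. Colours are clipped at 0.4; red cells prevail in the static and blue cells in the shear columns, most deeply for Kif2c and Espl1.

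**Figure D2:**
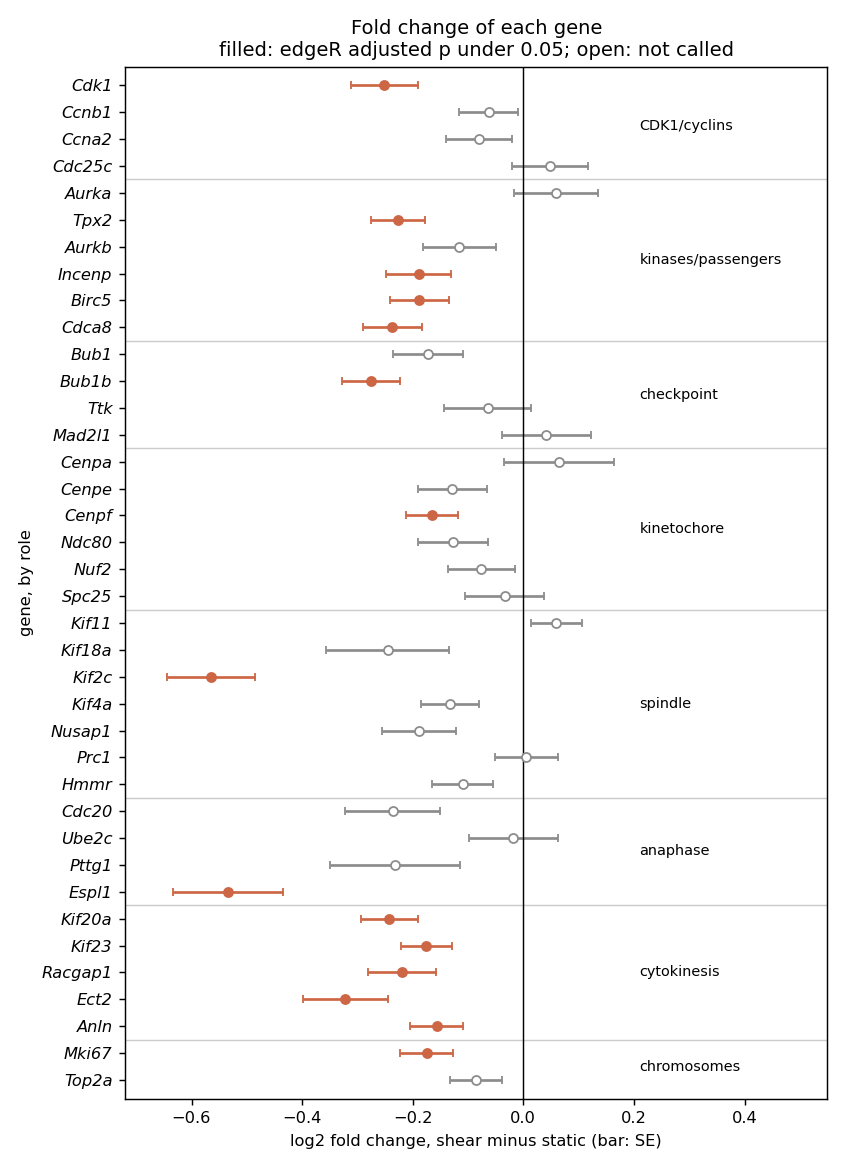
Log2 fold change of each gene (x axis, shear minus static; bars, SE from the edgeR test) by role. Filled points mark the 15 genes that fell and open points the 23 that did not pass; Kif2c at -0.56 and Espl1 at -0.53 lie furthest to the left, and 6 open points lie right of 0.

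Many promoters of these genes carry the same short elements. The cell cycle genes homology region (CHR) was searched here as the letters TTTGAA. It is bound in resting cells by the repressor complex DREAM and in G2 by complexes with MYBL2 and FOXM1. CCAAT boxes are bound by NF-Y. RefSeq promoters on the build GRCr8, from 250 bases before to 50 after a gene's start, were matched by symbol for 32 of the 38 members. TTTGAA was searched on both strands and stood in 72.7% of the 33 member promoters (Kif2c has 2 start sites), against 18.3% of all 33469 promoters of that length. CCAAT, on both strands, stood in 69.7% of member promoters against 37.5% of all, and both motifs together in 57.6% against 7.41%. Of 28 matches to TTTGAA in member promoters 23 read along the gene's own strand, against 51.2% of 7118 matches in all promoters, and 2 of the 28 shared bases with a CCAAT match. Among members with a promoter, 10 of the 12 that fell and 14 of the 20 that did not pass held TTTGAA, so the motif was common on either side of the threshold. These are matches of letters, and binding was not measured.

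The promoters of the 4 members with the lowest adjusted p among those that fell and held TTTGAA are shown whole, on the gene's strand and from 5′ to 3′. Capitals mark TTTGAA or its complement TTCAAA and CCAAT or its complement ATTGG. Espl1 lies at chr7:135302466-135302765 on the plus strand, Bub1b at chr3:126016817-126017116 on the plus strand, Cdca8 at chr5:142483150-142483449 on the minus strand and Ect2 at chr2:111966577-111966876 on the minus strand, all in GRCr8. In Cdca8 the TTTGAA and an ATTGG share bases, and Bub1b holds TTTGAA without CCAAT.
Espl1: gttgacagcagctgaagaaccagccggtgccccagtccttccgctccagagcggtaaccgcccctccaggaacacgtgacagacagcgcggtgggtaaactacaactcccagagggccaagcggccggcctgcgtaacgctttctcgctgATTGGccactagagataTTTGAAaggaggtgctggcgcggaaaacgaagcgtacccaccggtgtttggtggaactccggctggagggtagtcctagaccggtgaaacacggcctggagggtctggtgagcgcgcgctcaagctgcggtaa
Bub1b: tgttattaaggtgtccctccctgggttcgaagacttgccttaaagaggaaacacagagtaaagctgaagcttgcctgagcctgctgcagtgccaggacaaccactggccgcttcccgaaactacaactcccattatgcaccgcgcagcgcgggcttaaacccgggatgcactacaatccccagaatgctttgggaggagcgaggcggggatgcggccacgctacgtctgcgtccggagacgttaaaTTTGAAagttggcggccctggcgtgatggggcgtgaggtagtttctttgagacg
Cdca8: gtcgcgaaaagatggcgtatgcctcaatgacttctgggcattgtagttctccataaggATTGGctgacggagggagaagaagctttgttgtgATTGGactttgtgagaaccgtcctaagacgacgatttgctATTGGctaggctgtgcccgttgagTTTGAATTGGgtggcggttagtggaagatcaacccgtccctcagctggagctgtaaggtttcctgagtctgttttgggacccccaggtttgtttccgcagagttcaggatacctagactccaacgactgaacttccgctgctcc
Ect2: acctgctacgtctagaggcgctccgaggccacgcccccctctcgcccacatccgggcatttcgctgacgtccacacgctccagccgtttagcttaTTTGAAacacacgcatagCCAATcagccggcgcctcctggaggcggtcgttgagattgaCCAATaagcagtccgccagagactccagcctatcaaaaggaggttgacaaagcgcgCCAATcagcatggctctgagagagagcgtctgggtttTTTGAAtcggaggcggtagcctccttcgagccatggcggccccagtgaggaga

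The stretch around TTTGAA is shown for the other members that fell and held it on the gene's strand, with the motif in capitals and 12 bases on each side, to let the sites be read against each other. The first base of the motif lay 16 bases before the start in Cdk1, 8 in Birc5, 79 in Kif23, 24 in Anln and 99 in Mki67, and at base 3 of the gene in Cenpf. Cdk1 and Mki67 each hold 2 matches on that strand, of which the one nearest the start is shown; the others begin 72 bases before the start in Cdk1 and 117 in Mki67.
Cdk1: taccgcggtgagTTTGAAactgctggcact
Birc5: ccgcccgcgggtTTTGAAttagggattgtg
Cenpf: ggccgcgggcagTTTGAAtcgctcgtgctg
Kif23: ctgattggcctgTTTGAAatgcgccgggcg
Anln: tgaaattcaaatTTTGAAcggccgtggtag
Mki67: ccgccgttttcgTTTGAAttgggcgggcac
The bases next to the motif differ between these genes, while the match shown sits within 100 bases of the RefSeq start in each. That nearness is partly set by the choice of the nearest match and by the window searched. Positions were not compared with those in all promoters. Kif2c and Kif20a fell without a TTTGAA in this window. Variants of these letters were not searched, so these genes are not shown to lack a CHR.

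**Figure D3:**
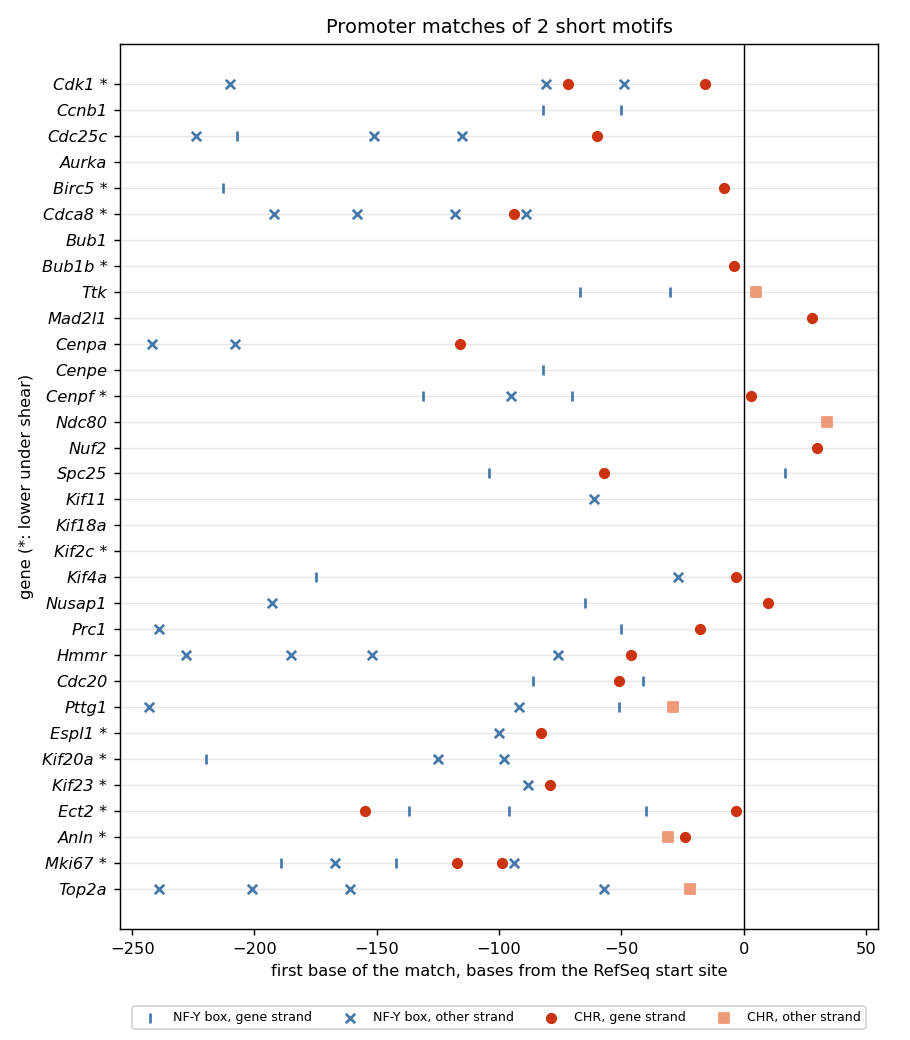
Position of the first base of each CHR match (circles and squares) and of each NF-Y box match (bars and crosses), in bases from the RefSeq start site, for the 32 members with a promoter; asterisks mark genes that fell. CHR matches gather near the start site in genes with and without an asterisk, and Kif2c, Kif18a, Bub1 and Aurka show no match of either kind.

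Of the engine of mitotic entry, Cdk1 fell, whereas the cyclins did not pass. Cdk1, the kinase that drives mitosis (chromosome 20, 20576377 to 20591549 in the count table, whose genome build is not given in the sources used here), stood at 43.9, 41.4 and 42.3 CPM in static and at 33.99, 38.3 and 35.00 CPM in shear libraries. The groups did not overlap, and the log2 fold change was -0.25 ± 0.06 (SE, adjusted p = 0.00411 by edgeR). Ccnb1, the B-type cyclin that activates CDK1, stood at 52.4, 52.2 and 51.8 CPM in static and at 49.4, 50.02 and 50.3 CPM in shear libraries. Every shear library was below every static one here too, but the gap was small, with a log2 fold change of -0.06 (95% interval -0.17 to 0.05, edgeR adjusted p = 0.476). Ccna2, the A-type cyclin of S phase and G2, had overlapping groups and a log2 fold change of -0.08 (95% interval -0.20 to 0.04). Cdc25c, the phosphatase that removes the inhibitory phosphates from CDK1, had one of 0.05 (95% interval -0.09 to 0.19). The log2 fold change of Cdk1 lies outside these 3 intervals, but its own 95% interval (-0.38 to -0.13) overlaps those of Ccnb1 and Ccna2. Differences between genes were not tested.

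Among the mitotic kinases and the chromosomal passenger complex, 4 of 6 genes fell, beside 7.71% of all genes tested. The complex is made of the kinase Aurora B with INCENP, survivin (Birc5) and borealin (Cdca8), and corrects faulty attachments of chromosomes. Cdca8 stood at 75.7, 68.2 and 71.1 CPM in static and at 60.9, 62.4 and 59.2 CPM in shear libraries, without overlap. Its log2 fold change was -0.24 ± 0.05 (SE, adjusted p = 0.00241 by edgeR). Incenp, the scaffold of the complex, stood at 501, 423 and 408 CPM in static and at 376, 391 and 401 CPM in shear libraries. Static replicate 1 lay apart from the other static libraries; with it the log2 fold change was -0.19 ± 0.06 (SE, adjusted p = 0.0244 by edgeR) and without it -0.09 (adjusted p = 0.289). Birc5 stood at 69.6, 74.6 and 73.2 CPM in static and at 66.4, 62.0 and 62.4 CPM in shear libraries, a log2 fold change of -0.19 ± 0.05 (SE, adjusted p = 0.0131 by edgeR). Aurkb, which encodes the kinase itself, stood at 25.5, 25.9 and 25.6 CPM in static and at 24.6, 22.2 and 24.2 CPM in shear libraries. It was lower in all shear libraries but did not pass, with a log2 fold change of -0.12 (95% interval -0.25 to 0.02, edgeR adjusted p = 0.262).

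Tpx2 encodes the spindle protein that activates Aurora A. It stood at 147, 143 and 157 CPM in static and at 123, 129 and 130 CPM in shear libraries, a log2 fold change of -0.23 ± 0.05 (SE, adjusted p = 0.00162 by edgeR). The gene of its partner kinase, Aurka, had a log2 fold change of 0.06 (95% interval -0.10 to 0.22) with overlapping groups. The calls of Cdca8 and Tpx2 held without any 1 library. Birc5 lost its call when static replicate 2 (edgeR adjusted p = 0.0745), shear replicate 2 (0.0580) or shear replicate 3 (0.0668) was left out, and Incenp did not pass without shear replicate 1 (0.106) or shear replicate 2 (0.0757) either.

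Of the spindle checkpoint, which delays anaphase until every kinetochore is attached, 1 of 4 genes fell, beside 7.71% of all genes tested. Bub1b, which encodes the checkpoint protein BUBR1 (chromosome 3, 110367939 to 110420458 in the table's coordinates), stood at 85.0, 81.9 and 86.3 CPM in static and at 66.6, 69.7 and 73.0 CPM in shear libraries. The groups were well apart, and the log2 fold change was -0.28 ± 0.05 (SE, adjusted p = 0.000363 by edgeR). Its relative Bub1, a kinase of the outer kinetochore, was also lower in every shear library, at 31.2 ± 0.5 CPM in static and 27.7 ± 1.6 CPM in shear (SD, n = 3 each), and did not pass (log2 fold change -0.17, edgeR adjusted p = 0.0636). It passed without shear replicate 2, and over the 15 alternatives its log2 fold change ran from -0.22 to -0.13. The MPS1 kinase gene Ttk (-0.06) and the MAD2 gene Mad2l1 (0.04) had overlapping groups.

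Of the centromere and kinetochore genes 1 of 6 fell, beside 7.71% of all genes tested. Cenpf, a large protein of the outer kinetochore, stood at 177, 169 and 172 CPM in static and at 149, 161 and 152 CPM in shear libraries, without overlap. Its log2 fold change was -0.16 ± 0.05 (SE, adjusted p = 0.0154 by edgeR), and it did not pass without static replicate 1 (0.0768), shear replicate 1 (0.0742) or shear replicate 3 (0.0727). The others had overlapping groups. The kinetochore kinesin gene Cenpe (-0.13) and 3 genes of the NDC80 complex, which grips microtubule ends, had negative fold changes, with Ndc80 at -0.13, Nuf2 at -0.08 and Spc25 at -0.03. Cenpa, the histone H3 variant that marks centromeres, had a log2 fold change of 0.06 (95% interval -0.14 to 0.27). The values of Cenpe and Ndc80 moved with the library left out. Cenpe passed without static replicate 2, but was closer to 0 without shear replicate 1 and closest, at a log2 fold change of -0.04, without static replicate 1 (edgeR adjusted p = 0.739). Ndc80 passed without shear replicate 3, but was closer to 0 without static replicate 1 and closest, at -0.06, without shear replicate 1 (edgeR adjusted p = 0.611).

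The spindle group held the steepest fall of all members, that of Kif2c. This gene encodes MCAK, a kinesin that takes microtubules apart at centromeres and spindle poles (chromosome 5, 136027934 to 136053210 in the table's coordinates). Kif2c stood at 21.9, 23.9 and 23.6 CPM in static and at 13.9, 16.4 and 16.7 CPM in shear libraries. The highest shear library was well below the lowest static one, and the log2 fold change was -0.56 ± 0.08 (SE, adjusted p = 9.56e-06 by edgeR), or 32.4% lower. It was the 1 gene of 7 in this role that fell, beside 7.71% of all genes tested. Kif11, the motor that pushes spindle poles apart, stood at 150 ± 1 CPM in static and 156 ± 6 CPM under shear (SD, n = 3 each), and the log2 fold change was 0.06 (95% interval -0.04 to 0.16). Prc1, which bundles the microtubules of the central spindle, had a log2 fold change of 0.01 (95% interval -0.11 to 0.12) and a negative one with upper-quartile factors or library totals. The chromosome-arm motor gene Kif4a (-0.13), Nusap1 (-0.19), which encodes a microtubule-bundling protein, and Kif18a (-0.25), whose motor damps chromosome movement, were lower in every shear library without passing. Nusap1 had an edgeR adjusted p of 0.0510. It passed with limma-voom, upper-quartile factors, library totals and a minimum count of 50, and without shear replicate 3. Its log2 fold changes ran from -0.27 to -0.12 over the 15 alternatives. Hmmr, which encodes a microtubule-binding protein of spindle poles, had a log2 fold change of -0.11.

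Anaphase starts when the anaphase-promoting complex, with its activator CDC20 and the ubiquitin-conjugating enzyme UBE2C, destroys securin (Pttg1) and frees separase (Espl1) to cut cohesin. Espl1 (chromosome 7, 143897014 to 143923868 in the table's coordinates) stood at 20.7, 20.9 and 22.2 CPM in static and at 17.9, 12.1 and 14.1 CPM in shear libraries. The shear libraries were more spread than the static ones, at 14.7 ± 3.0 against 21.3 ± 0.8 CPM (SD, n = 3 each), and stayed below them. The log2 fold change was -0.53 ± 0.10 (SE, adjusted p = 0.000318 by edgeR), and it lay between -0.70 and -0.41 over the alternatives tried. Cdc20 stood at 19.8 ± 1.2 CPM in static and 16.8 ± 2.1 CPM in shear (SD, n = 3 each), with overlapping groups and a log2 fold change of -0.24 (edgeR adjusted p = 0.0577). It passed without static replicate 1 or shear replicate 1, with upper-quartile factors, with library totals and without the low-count filter. Over the 15 alternatives its log2 fold change ran from -0.34 to -0.17. Pttg1, the member with the fewest counts (168 in shear replicate 2), was lower in every shear library with a log2 fold change of -0.23 (95% interval -0.48 to 0.01). Ube2c had one of -0.02 (95% interval -0.19 to 0.15).

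All 5 members placed under cytokinesis fell, and in each of them the groups did not overlap. Over all genes tested 7.71% were lower, and in 15.9% every shear library lay below every static library. This role does not hold every gene of that step. Prc1 of the central spindle, a member placed with the spindle genes, had a log2 fold change of 0.01. Cit, which acts at the midbody and is not a member, rose by 0.73. Ect2, the exchange factor that activates RHOA at the cell equator (chromosome 2, 112769385 to 112831476 in the table's coordinates), stood at 21.2, 23.0 and 21.5 CPM in static and at 18.2, 18.6 and 15.8 CPM in shear libraries. Its log2 fold change was -0.32 ± 0.08 (SE, adjusted p = 0.00382 by edgeR), the steepest of the 5. Racgap1 and Kif23 encode the centralspindlin complex that recruits ECT2 to the midzone. Racgap1 stood at 33.2, 35.3 and 33.3 CPM in static and at 29.6, 27.8 and 30.0 CPM in shear libraries, a log2 fold change of -0.22 ± 0.06 (SE, adjusted p = 0.0139 by edgeR). Kif23 stood at 153, 144 and 147 CPM in static and at 129, 132 and 133 CPM in shear libraries, a log2 fold change of -0.18 ± 0.05 (SE, adjusted p = 0.00889 by edgeR). Both members of the complex were thus lower by similar amounts, 14.1% and 11.4%.

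Kif20a, the kinesin that carries the passenger complex to the midzone, stood at 68.2, 70.1 and 69.3 CPM in static and at 57.3, 58.4 and 59.9 CPM in shear libraries. Replicates lay close together and the log2 fold change was -0.24 ± 0.05 (SE, adjusted p = 0.00118 by edgeR). Of its exon length 5.44% lies over exons of Cdc23 on the other strand, the only such overlap among the 38 genes. Whether counting used strand is not given in the sources used here. Cdc23 had a log2 fold change of -0.04 (edgeR adjusted p = 0.686). Anln, which encodes the anillin scaffold of the contractile ring, stood at 167 ± 5 CPM in static and 150 ± 6 CPM under shear (SD, n = 3 each), and the log2 fold change was -0.16 ± 0.05 (SE, adjusted p = 0.0215 by edgeR). The calls of Ect2 and Kif20a held without any 1 library. Kif23 did not pass without static replicate 1 (edgeR adjusted p = 0.0649), Racgap1 not without static replicate 2 (0.0856) or shear replicate 2 (0.0727), and Anln not without static replicate 1 (0.115), static replicate 2 (0.0576), shear replicate 1 (0.0941) or shear replicate 3 (0.0826).

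Mki67 encodes Ki-67, the proliferation marker that coats mitotic chromosomes, and had the most counts of the members, up to 28866 in a library. Mki67 (chromosome 1, 207993895 to 208020454 in the table's coordinates) stood at 790, 782 and 833 CPM in static and at 677, 752 and 702 CPM in shear libraries. The groups did not overlap, and the log2 fold change was -0.18 ± 0.05 (SE, adjusted p = 0.0102 by edgeR). It did not pass without static replicate 3 (0.0655), shear replicate 1 (0.0667) or shear replicate 3 (0.0556). Top2a, the topoisomerase that untangles sister chromatids, stood at 294, 270 and 279 CPM in static and at 260, 273 and 262 CPM in shear libraries. Static replicate 2 lay below shear replicate 2, and the log2 fold change was -0.09 (95% interval -0.18 to 0.01, edgeR adjusted p = 0.235).

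**Figure D4:**
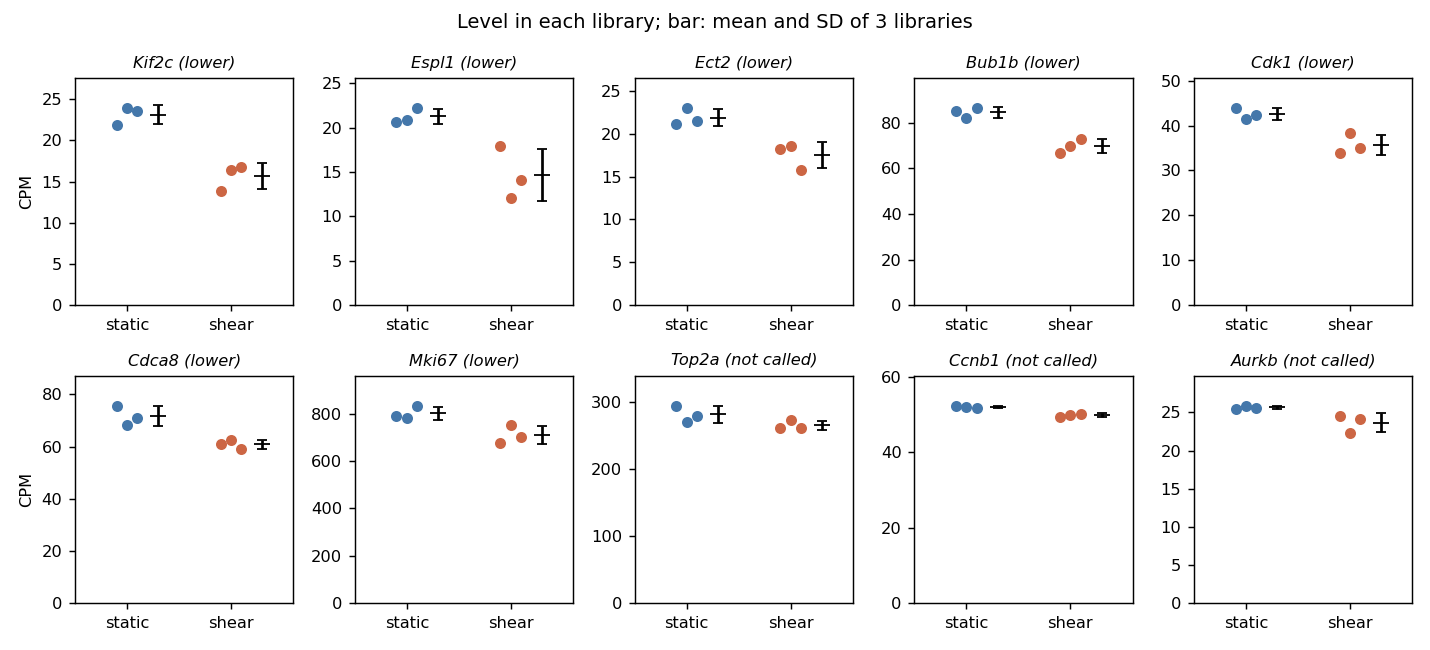
CPM (y axis, from 0) of 10 members in the 3 static (blue) and 3 shear (orange) libraries, with the mean and SD of each group in black. In the 7 genes that fell no shear point reaches a static point; Ccnb1 and Aurkb are also apart but by little, and Top2a overlaps.

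Levels per length, in CPM per kilobase of exon, set the members in order of abundance. Incenp was the highest in static cells at 125 ± 14, followed by Prc1 at 86.9 ± 8.7, Birc5 at 83.0 ± 3.0 and Mki67 at 81.1 ± 2.8 CPM per kilobase (SD, n = 3 each), of which the last 3 differ by less than the SD of Prc1. Kif18a was the lowest at 1.98 ± 0.07, then Espl1 at 3.11 ± 0.12 CPM per kilobase (SD, n = 3 each). The median of the 38 was 19.6 CPM per kilobase in static and 17.6 in shear libraries. The steepest falls belonged to genes of low level, Kif2c at 7.98 and Espl1 at 3.11 CPM per kilobase, while the 4 highest members had log2 fold changes between -0.19 (Incenp, Birc5) and 0.01 (Prc1). Other genes of low level differed. Cenpa at 4.54 and Aurka at 7.43 CPM per kilobase in static had a log2 fold change of 0.06 each, and Ect2 at 5.39 one of -0.32.

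Other mitosis genes, 82 of them and none a member, also fell more often than they rose. Of the 82, all tested, 23 fell (28.0%) and 3 rose (3.66%), with a median log2 fold change of -0.14. Over all genes tested 7.71% were lower and 10.8% higher, with a median of -0.01. Gtse1, which encodes a microtubule-binding protein that also restrains p53, went from 53.1 to 28.8 CPM (log2 fold change -0.88 ± 0.06, SE, edgeR adjusted p = 9.97e-11). Ckap2, a spindle-pole protein gene, went from 179 to 101 CPM (-0.83 ± 0.05, SE). Hjurp, which encodes the chaperone that loads CENP-A, went from 53.6 to 41.9 CPM (-0.36 ± 0.05, SE). The fold changes of Gtse1 and Ckap2 were larger than that of any member. Psrc1, named after its value was seen, went from 0.822 to 0.320 CPM (-1.35 ± 0.42, SE) and lost its call when static replicate 2 (edgeR adjusted p = 0.110), static replicate 3 (0.0586), shear replicate 1 (0.0556) or shear replicate 2 (0.141) was left out. The 3 that rose were the citron kinase gene Cit (0.73 ± 0.05, SE), which acts at the midbody and went from 114 to 189 CPM, the kinetochore gene Zwint (0.25) and Ckap2l (0.25), a relative of Ckap2 that did not pass without shear replicate 2 (edgeR adjusted p = 0.0923).

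Of 17 genes of the anaphase-promoting complex, its subunits and its regulators, 2 fell (11.8%) and 0 rose by edgeR. At an unadjusted p under 0.05 and by DESeq2, 0 were higher. Over all genes tested 7.71% were lower and 10.8% higher by edgeR, so the share that fell was not far from that of all genes. Fbxo5, which encodes its inhibitor EMI1, went from 53.7 to 34.5 CPM (log2 fold change -0.64 ± 0.07, SE, edgeR adjusted p = 5.59e-07), and the subunit gene Anapc1 fell by 0.23. Of 15 regulators of G2/M transcription, 1 was lower at an unadjusted p under 0.05 and 0 by DESeq2. By edgeR 0 fell and, beside 10.8% over all genes tested, 3 rose (20%). These were Nfya (0.40), a subunit of NF-Y, E2f4 (0.32), part of DREAM in resting cells, and Mybl2 (0.13, edgeR adjusted p = 0.0476), the B-MYB gene. Mybl2 did not pass with upper-quartile factors (edgeR adjusted p = 0.117), with library totals (0.239), or without any 1 library other than shear replicate 2 (0.0648 to 0.174). Foxm1, named after its value was seen, was lower in every shear library without passing (-0.17 ± 0.07, SE, edgeR adjusted p = 0.0849). Of 39 genes of G1/S and DNA replication 18 fell (46.2%) and 0 rose (edgeR; 0 higher at an unadjusted p under 0.05 and by DESeq2), with a median log2 fold change of -0.14; Tyms (-0.48), E2f8 (-0.45) and Mcm2 (-0.40) fell furthest. TTTGAA stood in 15.6% of the 32 promoters found for that list and in 49.3% of 73 promoters of the other mitosis genes.

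**Figure D5:**
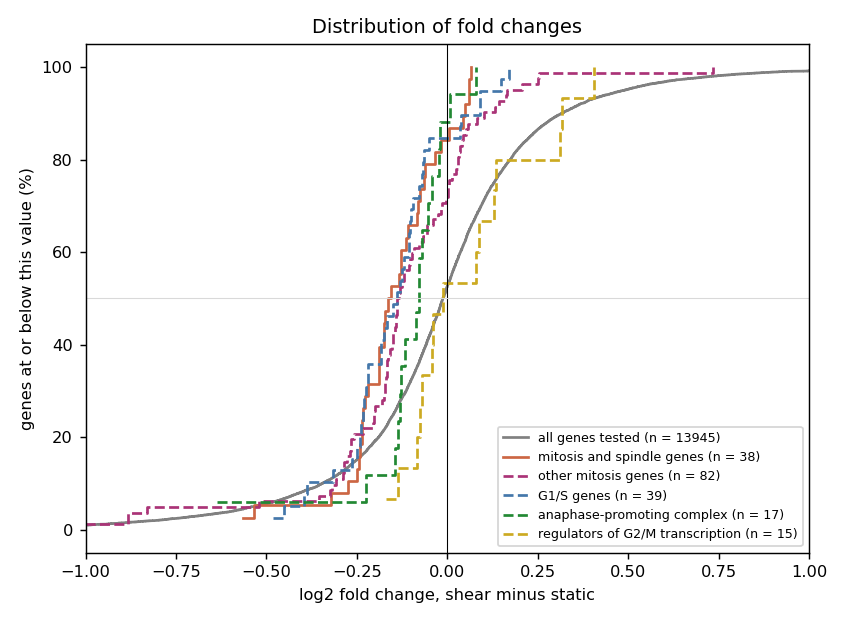
Share of genes (y axis, percent) at or below each log2 fold change (x axis, shear minus static) for the members, for 4 other lists and for all 13945 genes tested. The curves of the members, the other mitosis genes and the G1/S genes cross 50% near -0.15 and lie left of that of all genes; that of the regulators crosses near 0.

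Library totals were 33342775 to 33979479 counts, and counts of the members in a library ran from 168 to 28866. Between 17552 and 17863 genes had a count in a library. Markers of the labelled cell were uneven in static libraries. Of the superficial zone markers, the lubricin gene Prg4, Abi3bp, Clu, Thbs4 and Htra1 stood at 18.8 to 407 CPM. The others, Cilp, Erg, Vit, Sparcl1 and Dpt, stood at 0.0193 to 1.68 CPM. Of the chondrocyte markers, Col11a1, a minor cartilage collagen gene, stood at 586 CPM, and Sox9, Col11a2 and Acan at 6.535 to 14.2 CPM. Col2a1, the main cartilage collagen gene, was nearly absent (0.213 CPM). Col9a1, Col9a2, Matn1, Matn3, Hapln1, Comp and Snorc stood at 0 to 1.695 CPM. Of the fibroblast markers, the collagen gene Col1a1 was abundant (6098 CPM). Some of these markers also differed between the groups by edgeR, where 7.71% of all genes tested were lower and 10.8% higher. Of 8 superficial zone markers tested 3 rose, Prg4 (log2 fold change 0.25, adjusted p = 0.0184), Abi3bp (0.41) and Thbs4 (0.17). Of 7 chondrocyte markers tested Sox9, a transcription factor gene of cartilage, rose (1.26) and Acan, the aggrecan gene, fell (-0.34). Of 9 fibroblast markers Dcn (0.17) and Lum (0.32) rose, and Pdgfra (-0.20) and Pdgfrb (-0.14) fell. Of 4 leukocyte markers with enough counts to test 0 changed (edgeR; 1 at an unadjusted p under 0.05); the 11 in the table summed to 9.30 to 10.6 CPM in static and 8.29 to 9.76 CPM in shear libraries, with C1qa at 0 throughout. Of 4 endothelial markers tested, Kdr fell; the 9 in the table summed to 16.1 to 18.0 and 12.1 to 14.3 CPM, with Emcn and Cldn5 at 0 throughout. Of 7 skeletal muscle markers tested 4 fell; the 8 in the table summed to 26.2 to 27.6 and 21.2 to 22.0 CPM. The part of these markers in the falls of mitosis genes was not tested.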

How the data were processed

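Stranded mRNA libraries were prepared from Trizol-extracted total RNA, per the labels' protocols. The authors deposited 1 table of raw counts per gene, with exon positions and summed exon length in bases, per the file headers. Tools named in the submitters' processing notes are edgeR 3.12.1, Subread 1.5.1, featureCounts and Trimmomatic 0.36; the aligner, build, annotation and strand setting were not given in the sources used here. Low counts are mostly even (71.4% to 72.2% of counts from 1 to 20), so halved counts were an alternative and comparisons rest on the replicate spread.

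The test was the edgeR 4.0.16 quasi-likelihood test under R 4.3.3 (filterByExpr with minimum count 10, TMM factors of 0.979 to 1.026, two-sided, no covariates, Benjamini-Hochberg over 13945 genes, threshold 0.05), tested on simulated data. In that simulation a first criterion, set on moderate changes, was not met, and the criterion was then moved to larger changes, which passed. The median error of the fold changes was small. It pooled simulated rises and falls, whose errors in size can cancel, so it cannot show whether fold sizes were biased. Most genes given the smallest change there were not called, so a member that did not pass is not shown to be unchanged. The SE was obtained as the size of the log2 fold change divided by √F, and 95% intervals use the moderated degrees of freedom. Alternatives were DESeq2 1.42.0, limma-voom (limma 3.58.1), other scalings and filters, halved counts, a replicate block and leaving out each library. Replicates of a group differed beyond sampling noise (chi-square over degrees of freedom 5.57 to 8.18).

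Members, roles and lists were chosen with earlier results of these data known, so no list was tested as a whole. Values in every library are given for the member with the largest change in each role, up to 4 called members of a role, and Mki67, Top2a, Cdk1, Ccnb1 and Aurkb; from other lists, up to 3 called genes in each direction whose mean log2 CPM reaches 1. Sgo1, Sgo2, Gsg2 and Snorc (RGD1311447) were matched through RefSeq synonyms, and RefSeq promoters (GRCr8) by symbol.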

Additional observations from a re-analysis of the deposited data

How the results depend on the processing

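The direction of 31 of the 38 members was the same in all 15 alternatives, and 8 of the 15 that fell passed in each of them (Kif2c, Espl1, Bub1b, Kif20a, Tpx2, Cdca8, Ect2 and Cdk1). DESeq2, limma-voom, upper-quartile and RLE factors, both filters and halved counts kept all 15. With library totals alone 23 members, 36 other mitosis genes, 1 regulator of G2/M transcription and 1730 genes in all were lower, and the members' median was -0.21; upper-quartile factors also gave 1 lower regulator, and 1364 lower against 1275 higher genes in all. These scalings moved the median of all genes by -0.05 and -0.03. The cause of these changes was not tested. Leaving out a library gave 12 to 14 lower members, a median of -0.17 to -0.13, and 0 to 1 higher G1/S genes. The 7 members that changed sign passed in none of the 15 alternatives. Under upper-quartile scaling Prc1 had -0.0209, and under library totals it had -0.0441, where Cdc25c had -0.0018 and Mad2l1 -0.0084. With a library left out, log2 fold changes ran from -0.0728 to 0.052 for Prc1, -0.1096 to 0.0507 for Ube2c, -0.0019 to 0.1039 for Mad2l1, -0.0824 to 0.0334 for Spc25, -0.1317 to 0.0084 for Ttk, -0.126 to 0.0092 for Nuf2 and -0.0773 to 0.0045 for Cdc23. Over the alternatives of Cdk1 the highest adjusted p was 0.0286. Deviations of same-numbered libraries from their group means correlated at -0.019, -0.0187 and -0.0005, so no shared effect of the replicate number was seen. Whether libraries were paired by origin is not stated. A replicate block gave 15 lower members, an adjusted p of 0.0883 for Mybl2, and 964 lower and 1372 higher genes in all. Depth limits Pttg1 and Kif18a most, whose SEs were 0.12 and 0.11. No library group was large enough for a search for outlying samples.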
